A study of Mus musculus with 12 samples.

Results

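The question asked of these data was whether mouse embryos without Pabpn1l that have reached the 2-cell stage resemble wild-type (WT) embryos of the stage before. The 2 knockout (KO) 2-cell libraries were set against the 2 WT 1-cell libraries, which makes 4 of the 12 libraries of the series, over 11298 genes with a value in every library. The genotypes were Pabpn1l-KO and Pabpn1l-WT, all on a C57BL/6 background, and the 1-cell and 2-cell embryos had grown in KSOM medium. Each library was made from 10 pooled embryos by Smart-seq2, a full-length method that primes complementary DNA with oligo-dT and so reads RNA that carries a poly(A) tail. The remaining libraries, 2 in each group, were WT and KO oocytes at the germinal vesicle (GV) stage, KO 1-cell embryos and WT 2-cell embryos. The labels give no age, no mating scheme and no hour of collection. They do not say whether the mother, the embryo or both lacked Pabpn1l, nor whether both libraries of a group had separate parents, so p-values reflect only how far these samples spread, in part perhaps for technical reasons. KO 2-cell and WT 1-cell embryos differ in both stage and genotype, and in this contrast alone these cannot be told apart. The WT 2-cell libraries therefore served as a second reference throughout.

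An egg starts development on mRNA that its mother made. During the maternal-to-zygotic transition those transcripts lose their poly(A) tails and are degraded, while the embryo's own genome is switched on, in the mouse chiefly at the 2-cell stage. PABPN1L binds poly(A) tails and is made in oocytes and young embryos. BTG4 is an adaptor that brings the CCR4-NOT deadenylase to maternal mRNA. A KO embryo could differ from its own stage by keeping maternal transcripts, by failing to gain embryonic ones, or by both, and the 2 kinds of transcript are therefore described separately below.

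Values were the deposited FPKM, by name fragments per kilobase of transcript scaled to the mapped fragments of the library. No value is below 1 FPKM, here called the floor. Library sums ran from 53555.3 to 606488 FPKM across the series, and the basis of these scales is not given in the sources used here. The 4 libraries were on different scales. WT 1-cell libraries summed to 127008 and 98842.9 FPKM and KO 2-cell libraries to 63552.9 and 64092.4. The median of the 4201 genes that exceeded the floor in each of the 4 libraries was 1.73-fold higher in WT 1-cell embryos. All comparisons were therefore made on deposited values and again on centred values, for which each library was scaled to a common median over those 4201 genes and all libraries were given a common floor of 1.53. Centred values show changes relative to the median gene. The labels give 10 embryos per library, a number that the values cannot check. Whether the deposited shift reflects RNA content was not tested. Of the 11298 genes, 3941 had no value over the floor in these 4 libraries, and 3156 exceeded it in 1 to 3 of them. Fold changes are on the scale of log2(FPKM + 1), which understates the change of genes with low values.

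Which WT stage the KO 2-cell embryos resembled more depended on the KO library and on the measure. By correlation the 2 KO libraries lay on different sides. On centred values KO replicate 1 correlated across genes with WT 1-cell libraries at Pearson's r of 0.819 and 0.817 and with WT 2-cell libraries at 0.847 and 0.842. KO replicate 2 had the opposite order, with 0.854 and 0.853 for WT 1-cell and 0.818 and 0.803 for WT 2-cell. Genes are not independent replicates, so these values are descriptions. The root mean square log2 difference gave the same order on centred values over all genes. It was 0.734 and 0.73 from replicate 1 to WT 1-cell against 0.672 and 0.68 to WT 2-cell, and 0.667 and 0.663 from replicate 2 to WT 1-cell against 0.74 and 0.766 to WT 2-cell. As deposited, where the library scales enter the difference, both KO libraries were nearer to WT 2-cell. Replicate 1 was at 0.633 and 0.665 from WT 2-cell against 1.011 and 0.886 from WT 1-cell, and replicate 2 at 0.694 and 0.746 against 0.964 and 0.831. For scale, on centred values the 2 KO 2-cell libraries differed from each other by 0.298, the WT 1-cell libraries by 0.167, and WT 1-cell from WT 2-cell libraries by 0.819 to 0.873. On that scale each KO library was nearer to either WT stage than the WT stages were to each other. The highest r of each KO library outside its own group was with a KO 1-cell library, 0.849 for replicate 1 and 0.888 for replicate 2, on centred values over all genes. For replicate 1 this was level with WT 2-cell (0.847) and turned as deposited (0.82 with KO 1-cell against 0.849 with WT 2-cell). Over genes above the floor in all 8 embryo libraries replicate 1 stayed nearer to WT 2-cell (mean r of 0.81 against 0.734), and replicate 2 stayed nearer to WT 1-cell by a smaller margin (0.782 against 0.768). There the centred root mean square difference of replicate 2 did not separate the stages, at 0.982 and 0.982 from WT 1-cell and 0.963 and 0.999 from WT 2-cell.

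**Figure D1:**
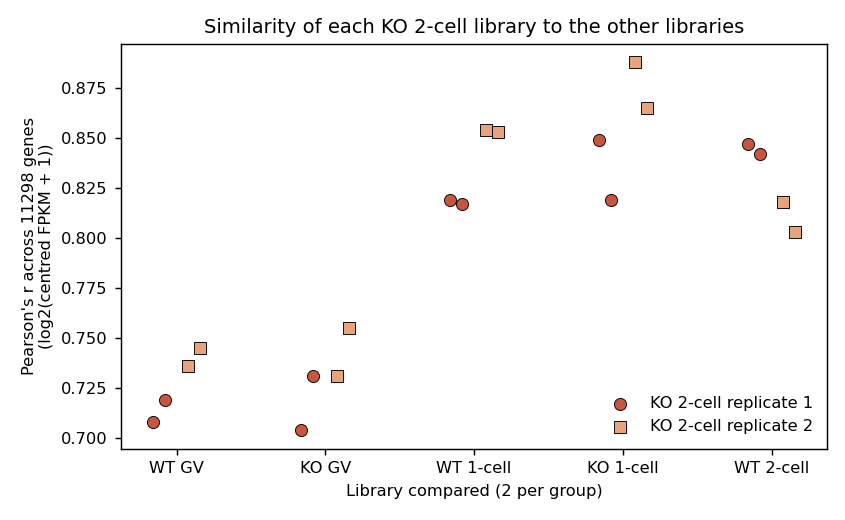
Pearson's r across 11298 genes, on log2 of the centred FPKM + 1, between each KO 2-cell library and each library of 5 other groups. Circles are KO replicate 1 and squares KO replicate 2. Circles are higher at WT 2-cell (0.847 and 0.842) than at WT 1-cell (0.819 and 0.817), and squares are higher at WT 1-cell (0.854 and 0.853) than at WT 2-cell (0.818 and 0.803).

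The genes that name the stage differed in how far they lay from the WT 1-cell level. Pabpn1l measured 16.4 and 12.2 FPKM in WT 1-cell libraries and 1 and 1.9 in KO 2-cell libraries, and the groups did not overlap (centred log2 fold change −1.83 ± 0.17 SE, limma adjusted p = 0.000328). It was also near the floor in WT 2-cell libraries, at 1.18 and 1 FPKM, so its level does not check the KO label at this stage. Btg4 measured 1084 and 694 FPKM in WT 1-cell, 650 and 612 in KO 2-cell libraries and 256 and 200 in WT 2-cell ones. The KO level lay just below both WT 1-cell libraries and above both WT 2-cell libraries as deposited. The difference from WT 1-cell did not pass the test on either scale (−0.46 ± 0.23 deposited, limma adjusted p = 0.202, and 0.55 ± 0.30 centred, limma adjusted p = 0.292). As deposited it passed without WT 1-cell replicate 2 (−0.78, limma adjusted p = 0.0204), and on the centred scale it passed with no common floor (0.55, limma adjusted p = 0.0298). As deposited Obox2, an oocyte-specific homeobox gene, was likewise below WT 1-cell and above WT 2-cell, but much further below WT 1-cell. It measured 586 and 337 FPKM in WT 1-cell, 36.4 and 34.9 in KO 2-cell libraries and 8.07 and 7.89 in WT 2-cell ones, with no overlap between any groups (KO 2-cell against WT 1-cell −2.61 ± 0.24 centred, limma adjusted p = 0.000306). Against the midpoint of the WT 1-cell and WT 2-cell levels Btg4 was higher in KO on centred values (1.01 ± 0.26, limma adjusted p = 0.0225). Obox2 did not pass there (−0.28 ± 0.20 centred, limma adjusted p = 0.458). As deposited Obox2 was below the midpoint (−0.79 ± 0.21, limma adjusted p = 0.0232).

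Across all genes the KO 2-cell embryo was far from a copy of the WT 1-cell embryo. On deposited values 3444 genes, or 30.5% of those tested, were called different at a limma adjusted p under 0.05. Of these, 353 (3.12%) were higher in KO 2-cell libraries and 3091 (27.4%) lower, 175 and 2129 of them by at least 2-fold. On centred values 3033 genes (26.8%) were called, 1534 (13.6%) higher and 1499 (13.3%) lower, with 627 and 737 of them changed at least 2-fold. Both scales called 342 genes higher and 1498 lower, and 18 genes had opposite calls. The balance depended on the scaling, since centring on genes above 5 FPKM gave 953 higher and 1748 lower, and quantile normalization gave 3705 and 2739. With only the 4 libraries in the fit the counts were 695 and 784, and the centred calls of 34 of the 94 genes named by rule ended (limma adjusted p of 0.0545 to 0.429). As deposited the number called higher was 183 without WT 1-cell replicate 2 and 209 without KO 2-cell replicate 1. Genes called at least 2-fold higher on centred values had shorter transcripts, with a median of 2314 bases against 3078 for all genes and 2861 for those at least 2-fold lower. The part of transcript length in the calls was not tested. Against WT 2-cell libraries KO 2-cell embryos had 3439 genes (30.4%) called on centred values and 2211 (19.6%) as deposited. Fewer genes thus separated KO from WT 1-cell than from WT 2-cell embryos on centred values, and more as deposited. The centring genes were chosen by their levels in KO 2-cell and WT 1-cell libraries only, and WT 2-cell libraries were then centred on them. The centred totals are therefore not on an equal footing, and the part of that choice was not tested.

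The transcripts furthest above WT 1-cell embryos fell into those that WT embryos also gained and those that they did not. Rn45s, the 45S precursor of ribosomal RNA, was at the floor in WT 1-cell and in WT 2-cell libraries and measured 1603 and 1325 FPKM in KO 2-cell libraries (limma adjusted p = 1.7e-05 on the centred scale). It made up 2.52% and 2.07% of the summed FPKM there. The precursor is not a polyadenylated mRNA, and GV libraries of both genotypes also held it, at 0.403% to 1.01% of their sum, as did KO 1-cell libraries, at 1.39% and 1.7%. Lsm5, a member of the Lsm rings that act in mRNA decay and splicing, measured 36.1 and 15.1 FPKM in WT 1-cell, 158 and 187 in KO 2-cell libraries and 7.62 and 9.2 in WT 2-cell ones (3.80 ± 0.32, limma adjusted p = 0.000236). Tmsb4x, which encodes the actin-sequestering peptide thymosin beta 4, was at the floor in WT 1-cell libraries, at 31.2 and 21.1 FPKM in KO 2-cell and at 3.29 and 4.18 in WT 2-cell libraries (limma adjusted p = 1.1e-05). These 3 genes were higher in KO 2-cell embryos than in either WT stage, so their levels resembled neither. The call of Lsm5 as deposited did not pass with only the 4 libraries in the fit (limma adjusted p = 0.0557).

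A second group of genes rose in WT embryos from the 1-cell to the 2-cell stage and was partly raised in KO embryos. The 4 transcripts 2310039L15Rik, Dcdc2c, Gm7102 and D17Ertd648e had 1.03 to 2.77 FPKM in WT 1-cell libraries. In KO 2-cell libraries 2310039L15Rik measured 302 and 45.7 FPKM and in WT 2-cell libraries 270 and 516 (KO 2-cell against WT 1-cell 5.99 ± 0.75, limma adjusted p = 0.0012). Dcdc2c measured 239 and 35 in KO against 223 and 427 in WT 2-cell, Gm7102 measured 194 and 31.6 against 191 and 373, and D17Ertd648e measured 90.1 and 14.5 against 112 and 162. KO replicate 1 thus reached or came near the lower WT 2-cell library for each of them, and KO replicate 2 stayed far below both. The 4 transcripts moved in near-constant proportion, with KO replicate 1 6.14 to 6.84 times replicate 2 and WT 2-cell replicate 2 1.45 to 1.95 times replicate 1. Whether they share reads was not tested. With only the 4 libraries in the fit these 4 calls did not pass (limma adjusted p of 0.0743 for 2310039L15Rik to 0.124 for D17Ertd648e).

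The transcripts furthest below WT 1-cell embryos were mainly ones that WT embryos also lost. Rgs2, a regulator of G-protein signalling that restrains calcium release in mouse eggs, measured 215 and 166 FPKM in WT 1-cell, 3.45 and 2.86 in KO 2-cell libraries and 1.23 and 1.18 in WT 2-cell ones (−4.62 ± 0.11, limma adjusted p = 1.3e-06). H1foo, the oocyte linker histone, measured 295 and 302 FPKM in WT 1-cell, 7.08 and 8.76 in KO 2-cell libraries and 10.3 and 6.12 in WT 2-cell ones (−4.12 ± 0.30, limma adjusted p = 0.000135). The KO and WT 2-cell levels of H1foo overlapped, and both were far below WT 1-cell. A430033K04Rik, at 62.3 and 49 FPKM in WT 1-cell, fell to 1.19 and 1.8 in KO and to the floor in WT 2-cell libraries. E330021D16Rik measured 628 and 446, 19.5 and 29.2, and 11.9 and 14.3 FPKM in the same order of groups. Txnip, a thioredoxin-binding arrestin, measured 88.2 and 49.2 FPKM in WT 1-cell, 3.1 and 1.74 in KO 2-cell libraries and 1.84 and 1.75 in WT 2-cell ones. For these genes the KO 2-cell embryo had left the WT 1-cell level as far as, or nearly as far as, the WT 2-cell embryo had.

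For 3 of the 8 most reduced transcripts the KO level undershot both WT stages. Snrpd3, a core protein of spliceosomal snRNPs, measured 126 and 101 FPKM in WT 1-cell, 4.78 and 3.78 in KO 2-cell libraries and 20 and 19.3 in WT 2-cell ones (KO 2-cell against WT 1-cell −3.51 ± 0.11, limma adjusted p = 4.8e-06). AU022751 measured 196 and 210 FPKM in WT 1-cell, 5.25 and 6.77 in KO 2-cell libraries and 49.9 and 26.4 in WT 2-cell ones (−3.93 ± 0.40, limma adjusted p = 0.00047). Arl6ip1, a membrane-shaping protein of the endoplasmic reticulum, measured 131 and 99.9, 5.22 and 4.71, and 8.41 and 11.3 FPKM in that order (−3.35 ± 0.11, limma adjusted p = 8e-06). In each case both KO 2-cell libraries were below both WT 2-cell libraries as deposited.

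**Figure D2:**
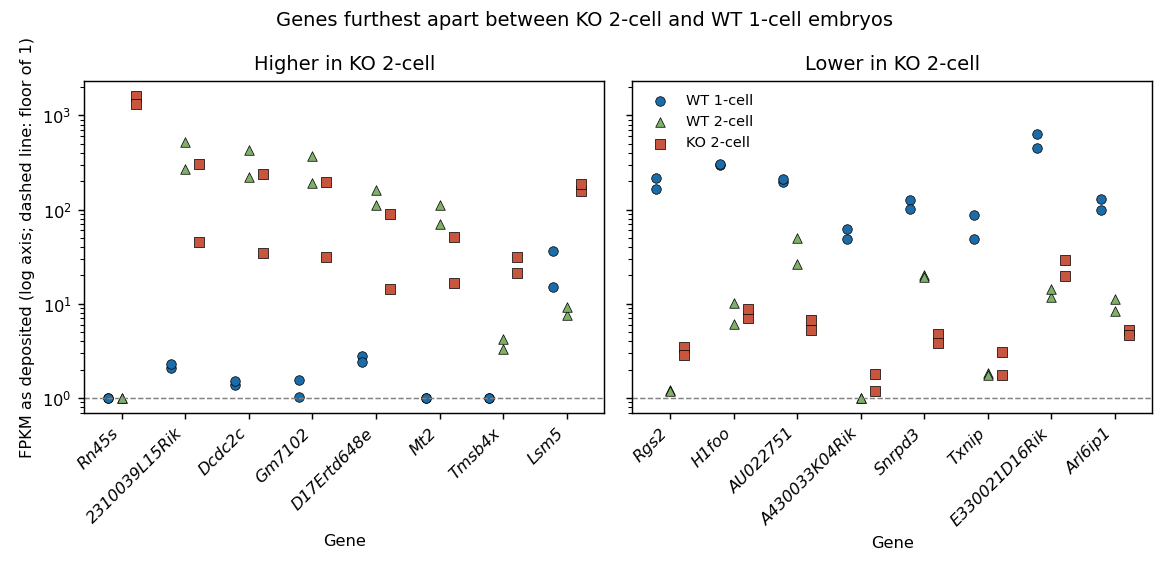
FPKM as deposited, on a log axis, of the 8 genes with the largest centred rise (left) and the 8 with the largest fall (right) in KO 2-cell against WT 1-cell embryos. Each point is 1 library, circles for WT 1-cell, triangles for WT 2-cell and squares for KO 2-cell, and the dashed line is the floor of 1 FPKM. On the right all squares lie far below the circles, whereas on the left Rn45s, Tmsb4x and Lsm5 are higher in KO 2-cell than in either WT stage.

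Genes were next sorted by what WT embryos did between the stages, and each KO 2-cell level was tested against the midpoint of the WT 1-cell and WT 2-cell levels. Between the WT stages 4046 genes (35.8%) were called on centred values, 2385 (21.1%) higher at the 2-cell stage and 1661 (14.7%) lower. Against the midpoint 3583 genes (31.7%) were called, 1445 (12.8%) above and 2138 (18.9%) below it. Of the 1661 transcripts that WT embryos lost, 682 (41.1%) were past the test on the WT 2-cell side in KO embryos and 261 (15.7%) on the WT 1-cell side, and 718 were on neither side. Of those 682 transcripts, 261 lay below both WT 2-cell libraries. Of the 2385 transcripts that WT embryos gained, 1104 (46.3%) were past the test on the WT 1-cell side and 485 (20.3%) on the WT 2-cell side, of which 311 lay above both WT 2-cell libraries. The remaining 796 passed on neither side. The 261 below and 311 above both WT 2-cell libraries came from genes already past the midpoint on that side. No share over all genes was worked out for them, so they do not measure an overshoot. Transcripts lost in WT were thus more often on the WT 2-cell side in KO embryos, and transcripts gained in WT more often on the WT 1-cell side. Both of these larger groups lie below the midpoint, as did most genes called against it. A side of the midpoint does not place a level at a stage. Because WT 2-cell libraries were centred on genes chosen without them, the centred WT change and the midpoint depend on that choice, whose part was not tested. Among genes not called between the WT stages, 699 of 7252 were above the midpoint in KO embryos and 352 below.

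The same split was seen on deposited values, where the shift between library scales enters it. On centred values the split of gained transcripts depended on genes of low level. As deposited, of 3274 transcripts (29%) lost in WT 171 were on the WT 1-cell side and 1321 on the WT 2-cell side in KO, and of 1068 (9.45%) gained in WT 565 and 40. There 407 genes (3.6%) were called above the midpoint and 2361 (20.9%) below. Lost transcripts on the WT 2-cell side and gained ones on the WT 1-cell side are both below the midpoint. The deposited split therefore cannot be told apart from the lower scale of the KO 2-cell libraries than of the WT 1-cell ones. Among transcripts changed at least 4-fold in WT, a limit added after the data were seen, 17 of 181 lost transcripts were on the WT 1-cell side and 104 on the WT 2-cell side on centred values, and 142 and 21 of 289 gained ones. When genes averaging under 5 FPKM were dropped, lost transcripts numbered 232 and 383 in that order, whereas gained transcripts turned to 216 on the WT 1-cell side and 327 on the WT 2-cell side. As deposited the same filter left gained transcripts at 149 and 39. Without WT 1-cell replicate 2 the 485 gained transcripts on the WT 2-cell side became 321. Of the deposited counts, the 1321 became 657 without KO 2-cell replicate 1, 756 without KO 2-cell replicate 2 and 848 without WT 2-cell replicate 2. The 565 became 308 without KO 2-cell replicate 2. The 171 became 100 without KO 2-cell replicate 2, 107 without KO 2-cell replicate 1 and 110 without WT 2-cell replicate 1, and the 40 became 19 to 26 without either WT 2-cell library, KO 2-cell replicate 1 or WT 1-cell replicate 2.

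The size of each shift was measured with genes sorted by 1 WT replicate number and levels compared with the other, so that the libraries that chose the genes did not measure the change. Cleared transcripts (at least 5 FPKM in WT 1-cell and at least 4-fold lower in WT 2-cell on centred values) numbered 194 and 191 in the 2 sortings. Their median KO level had covered 84% and 86.8% of the WT change in KO replicate 1 and 69.2% and 75.8% in KO replicate 2. Gained transcripts (at least 5 FPKM in WT 2-cell and at least 4-fold higher) numbered 283 and 306. Their median had covered 37.5% and 39.6% of the WT change in KO replicate 1 but 10% and 10.6% in KO replicate 2. Among cleared transcripts 12% to 29.9% were nearer to WT 1-cell than to WT 2-cell, and among gained transcripts 60.8% to 89.4%. Transcripts that WT embryos kept within 1.5-fold, 824 and 808, had medians 0.15 to 0.29 above WT 1-cell on the log2 scale. With a minimum of 20 FPKM the gained transcripts had covered 47.4% in KO replicate 1 and 19.1% in replicate 2, as the mean of both sortings. No test was made of these positions, which describe 2 KO libraries.

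**Figure D3:**
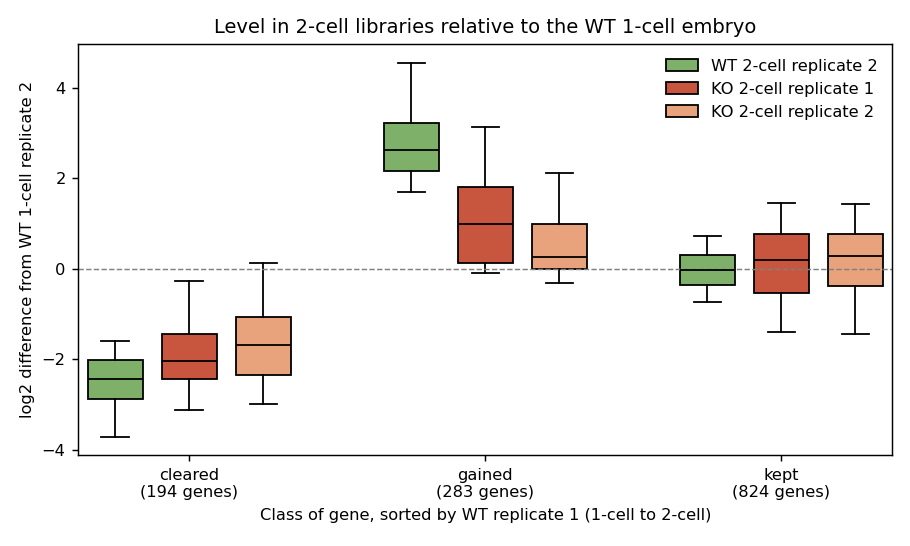
Log2 difference from WT 1-cell replicate 2 of centred FPKM + 1 for genes sorted by the WT replicate 1 libraries into cleared, gained and kept. Boxes show the median and quartiles over genes and whiskers the 5th and 95th percentiles, for WT 2-cell replicate 2 and both KO 2-cell libraries. The KO medians of cleared genes, −2.04 and −1.68, are near the WT 2-cell median of −2.42, whereas those of gained genes, 0.99 and 0.26, are far below 2.63.

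The KO 2-cell libraries leaned apart over the transcripts that WT embryos gain. Of the 2385 genes gained in WT on centred values, KO replicate 1 was higher than replicate 2 in 1075 and lower in 494, and over all genes the 2 counts were 2550 and 2619. By correlation over all genes replicate 1 was likewise the nearer of the KO libraries to WT 2-cell embryos.

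Among the transcripts that WT embryos gained most, Mt1 and Mt2 encode metallothioneins, small proteins that bind zinc and other metals and whose genes are known to be switched on through the metal-responsive factor MTF1. Their genes are neighbours on mouse chromosome 8. Their promoters are shown because both genes went from the floor in WT 1-cell embryos to among the most gained transcripts, and KO embryos raised both to a lesser level. The sequences run from 250 bases before to 50 bases after the RefSeq start on GRCm38.p6, on the plus strand, at chr8:94178839-94179138 for Mt1 and chr8:94172368-94172667 for Mt2. Capitals mark matches to the core of the metal response element, searched as TGCGCNC or TGCACNC on both strands.
Mt1: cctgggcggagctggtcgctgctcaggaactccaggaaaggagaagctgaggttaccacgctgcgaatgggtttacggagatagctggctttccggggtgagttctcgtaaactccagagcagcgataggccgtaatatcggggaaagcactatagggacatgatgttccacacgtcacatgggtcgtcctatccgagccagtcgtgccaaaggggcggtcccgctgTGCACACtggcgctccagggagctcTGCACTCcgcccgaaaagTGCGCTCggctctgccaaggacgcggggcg
Mt2: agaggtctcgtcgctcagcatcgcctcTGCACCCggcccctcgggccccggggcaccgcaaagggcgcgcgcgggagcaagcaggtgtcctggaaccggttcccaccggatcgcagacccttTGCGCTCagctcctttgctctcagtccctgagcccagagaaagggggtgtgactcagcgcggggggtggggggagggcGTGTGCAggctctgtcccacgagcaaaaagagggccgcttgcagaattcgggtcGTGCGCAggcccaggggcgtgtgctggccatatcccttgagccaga
The Mt1 window held 3 matches and the Mt2 window 4, 2 on each strand, and none overlapped. Of 32851 promoters of the same length 25.7% held at least 1 match and 1.97% at least 3. A match describes letters only. Mt1 was at the floor in both WT 1-cell libraries, at 41.1 and 6.61 FPKM in KO 2-cell and at 94.5 and 147 in WT 2-cell libraries (KO 2-cell against WT 1-cell, limma adjusted p = 0.0104). Mt2 was at the floor in WT 1-cell, at 51.3 and 16.4 FPKM in KO 2-cell and at 71 and 113 in WT 2-cell libraries (limma adjusted p = 0.000605). Both KO 2-cell libraries were above the WT 1-cell and below the WT 2-cell libraries for each gene, with KO replicate 1 the higher. The call of Mt1 did not hold without WT 1-cell replicate 1 (limma adjusted p = 0.0545) or WT 1-cell replicate 2 (limma adjusted p = 0.0533), nor did those of Mt1 and Mt2 with only the 4 libraries in the fit (limma adjusted p = 0.185 and 0.0596).

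Abt1, an activator of basal transcription, behaved like the metallothioneins. It was at the floor in WT 1-cell libraries, at 17.4 and 4.65 FPKM in KO 2-cell and at 74.6 and 115 in WT 2-cell libraries (KO 2-cell against WT 1-cell, limma adjusted p = 0.00784, or 0.161 with only the 4 libraries in the fit). Of the 6 transcripts most lost in WT, Zar1, a maternal RNA-binding factor needed in the mouse for the oocyte-to-embryo transition, measured 86.2 and 103 FPKM in WT 1-cell, 4.77 and 5.6 in KO 2-cell libraries and 2.39 and 1.54 in WT 2-cell ones (−3.02 ± 0.34, limma adjusted p = 0.000766). The other 5 were Rgs2, Obox2, E330021D16Rik, H1foo and A430033K04Rik, described above. All 6 were called lower in KO 2-cell than in WT 1-cell embryos, and all but H1foo lay above both WT 2-cell libraries in KO as deposited.

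**Figure D4:**
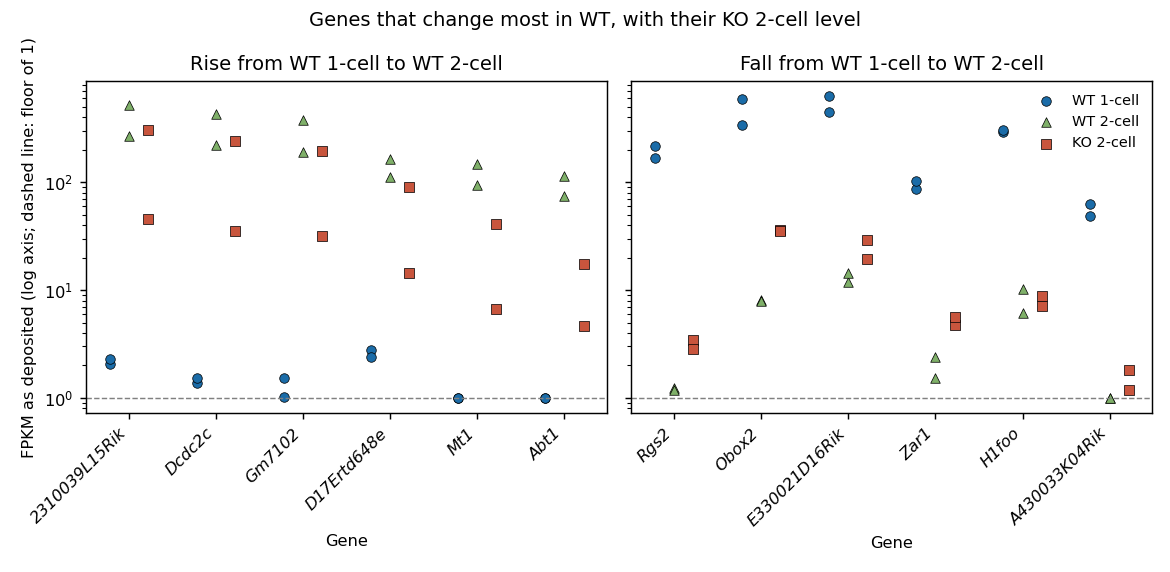
FPKM as deposited, on a log axis, of the 6 genes that rise most (left) and the 6 that fall most (right) from WT 1-cell to WT 2-cell embryos on centred values. Circles are WT 1-cell, triangles WT 2-cell and squares KO 2-cell libraries, with the floor of 1 FPKM as a dashed line. The KO squares on the right lie nearer to the triangles than to the circles, with Obox2 (36.4 and 34.9 against 8.07 and 7.89 FPKM) the farthest from them, and on the left 1 square of each pair lies near the triangles for 2310039L15Rik, Dcdc2c, Gm7102 and D17Ertd648e while both lie below them for Mt1 and Abt1.

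Maternal mRNA decay factors showed no common direction on centred values and were mostly lower among those called as deposited. Of 37 deadenylation and decay genes 6 were called higher and 7 lower on centred values against the 13.6% and 13.3% of all genes, and 1 and 15 as deposited, where the shares of all genes were 3.12% and 27.4%. Pan3, a subunit of the PAN2-PAN3 deadenylase, measured 34.7 and 24.6 FPKM in WT 1-cell, 35.6 and 34.7 in KO 2-cell libraries and 21.1 and 21.9 in WT 2-cell ones (1.23 ± 0.17 centred, limma adjusted p = 0.00168). The deadenylase gene Cnot6 was higher as well (1.19 ± 0.17, limma adjusted p = 0.00225). As deposited neither Pan3 nor Cnot6 passed (0.26 and 0.35, limma adjusted p = 0.437 and 0.484). The decapping factor gene Dcp1a fell in both genotypes, from 38.7 and 27.8 FPKM in WT 1-cell to 3.72 and 3.78 in KO 2-cell libraries and 2.65 and 2.09 in WT 2-cell ones (KO 2-cell against WT 1-cell −1.94 ± 0.21, limma adjusted p = 0.000658). Cnot3, a CCR4-NOT subunit, measured 13.1 and 19.3 FPKM in WT 1-cell, 1.62 and 1.49 in KO 2-cell libraries and 3.37 and 2.47 in WT 2-cell ones (−1.94 ± 0.31, limma adjusted p = 0.00348, or 0.0648 with only the 4 libraries in the fit). Btg4, given above, had the highest level of the list.

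Of 8 poly(A)-binding proteins and partners 2 were higher and 2 lower on centred values (all genes: 13.6% and 13.3%), and 4 not called. Of these counts the first was 1 without either WT 1-cell library or KO 2-cell replicate 1, the second was 1 without WT 1-cell replicate 1, and both scalings by median ratio and by genes above 5 FPKM called 1 higher. Paip2, an inhibitor of poly(A)-binding protein, measured 11.5 and 8.12 FPKM in WT 1-cell, 22.7 and 24.1 in KO 2-cell libraries and 9.58 and 12.4 in WT 2-cell ones (2.13 ± 0.14 centred, limma adjusted p = 9e-05). Both KO libraries were above all 4 WT libraries, as deposited too. Pabpc1, the main cytoplasmic poly(A)-binding protein gene, was at the floor in WT 1-cell, at 2.91 and 1.63 FPKM in KO 2-cell and at 8.08 and 12 in WT 2-cell libraries (limma adjusted p = 0.0325). Its call ended without WT 1-cell replicate 1 (limma adjusted p = 0.128), WT 1-cell replicate 2 (0.121) or KO 2-cell replicate 1 (0.0804), with centring on genes above 5 FPKM (0.219), with median-ratio size factors (0.0685), with only the 4 libraries (0.252) and with the replicate number as a block (0.0556). The related inhibitor gene Paip2b was lower, at 9.07 and 4.34 against 44.2 and 32.7 FPKM (−1.48 ± 0.31, limma adjusted p = 0.0118), which did not hold without WT 1-cell replicate 1 (limma adjusted p = 0.0639) or with only the 4 libraries (0.131). Paip1, with the highest level of the list, did not pass (0.51 ± 0.23, limma adjusted p = 0.182).

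Of 33 genes of translational control and cytoplasmic polyadenylation 10 were higher and 12 lower on centred values, where 13.6% and 13.3% of all genes were, and 1 and 15 as deposited, where 3.12% and 27.4% were. Dazl, a germ-cell translational activator, measured 122 and 84 FPKM in WT 1-cell, 54.8 and 77.9 in KO 2-cell libraries and 8.68 and 9.56 in WT 2-cell ones. Its KO level did not pass against WT 1-cell (0.37 ± 0.21 centred, limma adjusted p = 0.319, and −0.62 ± 0.23 deposited, limma adjusted p = 0.0685) and was 1.56 ± 0.18 above the midpoint (limma adjusted p = 0.000766). As deposited Dazl was lower than in WT 1-cell among genes of at least 5 FPKM (−0.62, limma adjusted p = 0.0262), without WT 1-cell replicate 2 (−0.89, 0.023) and without KO 2-cell replicate 2 (−0.87, 0.0352). Stau1, a double-stranded RNA-binding protein gene, had instead fallen to 2.69 and 4.15 FPKM from 31.1 and 29.9 in WT 1-cell, against 4.9 and 4.35 in WT 2-cell libraries (−1.97 ± 0.21, limma adjusted p = 0.000639). Fxr2, a relative of the fragile X protein gene, was higher at 3.02 and 3.09 against 1.09 and 1.14 FPKM (1.07 ± 0.14, limma adjusted p = 0.00142). Ybx2, a germ-cell mRNA-storage protein gene, was higher on centred values (1.19 ± 0.27, limma adjusted p = 0.0167), but not without WT 1-cell replicate 1 (0.95, limma adjusted p = 0.1), KO 2-cell replicate 1 (1.22, 0.0663) or KO 2-cell replicate 2 (1.25, 0.0537), nor with centring on genes above 5 FPKM (0.92, 0.0581) or with only the 4 libraries (0.0611). Without WT 1-cell replicate 1 the count of higher members was 6 in place of 10.

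Oocyte-specific and maternal-effect genes were mostly lower in KO 2-cell than in WT 1-cell embryos and often higher than in WT 2-cell embryos. Of 49 measured genes 31 were lower in KO 2-cell than in WT 1-cell embryos and 2 higher on centred values, and 43 and 0 as deposited. Their median log2 fold change was −0.99 centred, against 0 for all genes, and −1.06 to −1.29 under the other scalings tried. Among all genes 13.3% were lower and 13.6% higher in KO on centred values, and 27.4% and 3.12% as deposited. In WT 2-cell embryos 39 of the 49 were lower than in WT 1-cell and 2 higher (all genes: 14.7% and 21.1%), with a median of −1.88. Of those 39, the KO level was on the WT 2-cell side of the midpoint for 14 and on the WT 1-cell side for 4, against 41.1% and 15.7% of all transcripts lost in WT. Against WT 2-cell embryos, where 30.4% of all genes were called (12.5% higher in KO and 18% lower, or 19.6% in all as deposited), 28 of the 49 were higher in KO and 1 lower, with a median of 0.78. The list thus lay between the WT stages, below WT 1-cell and above WT 2-cell. Oog4, an oogenesin, measured 172 and 111 FPKM in WT 1-cell, 5.98 and 6.92 in KO 2-cell libraries and 4.77 and 4.19 in WT 2-cell ones (−3.28 ± 0.19, limma adjusted p = 5.3e-05). Npm2, an egg nucleoplasmin, measured 116 and 97.6, 59 and 55.9, and 17.9 and 17.9 FPKM in the same order, chosen after its values were seen as 1 of the 4 on the WT 1-cell side (0.88 above the midpoint, limma adjusted p = 0.000147). The rest of those 4 were Nlrp4f, Nlrp9c and Pla2g4c. Oosp1, a secreted oocyte protein gene with the highest level of the list, measured 1476 and 1005 FPKM in WT 1-cell, 888 and 940 in KO 2-cell libraries and 318 and 318 in WT 2-cell ones. It did not pass against WT 1-cell (0.59 ± 0.39 centred, limma adjusted p = 0.424), and its centred value changed sign with quantile normalization (−0.11). Oosp1 passed as higher on centred values among genes of at least 5 FPKM (0.59, limma adjusted p = 0.0436) and with no common floor (0.59, 0.0203), and as lower on deposited values without WT 1-cell replicate 2 (−0.69, 0.0488).

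The 2 maternal genes called higher were Omt2a and Omt2b, paralogous oocyte-maturation genes whose reads could be split between copies. Omt2a measured 640 and 433 FPKM in WT 1-cell, 909 and 772 in KO 2-cell libraries and 469 and 543 in WT 2-cell ones (1.67 ± 0.25 centred, limma adjusted p = 0.00241, and 0.67 as deposited, limma adjusted p = 0.0596). Both KO libraries were above all 4 WT libraries as deposited. The call of Omt2b (1.15 ± 0.29, limma adjusted p = 0.0271) was lost without each of the 4 libraries in turn (limma adjusted p of 0.0564 to 0.162) and with the replicate number as a block (0.0586). Only 1 gene was higher without each of these libraries. With only the 4 libraries in the fit neither Omt2a nor Omt2b passed (limma adjusted p = 0.159 and 0.429).

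Of 5 Obox homeobox genes, 3 were abundant in WT 1-cell embryos and 2 appeared at the WT 2-cell stage. Obox1 measured 406 and 273 FPKM in WT 1-cell, 44.6 and 74 in KO 2-cell libraries and 11.9 and 11.2 in WT 2-cell ones (−1.52 ± 0.28, limma adjusted p = 0.00695, or 0.115 with only the 4 libraries). Obox5 measured 698 and 458, 224 and 304, and 169 and 120 FPKM, and did not pass on centred values (−0.11 ± 0.30, limma adjusted p = 1), where its sign changed without WT 1-cell replicate 1 (0.05) or KO 2-cell replicate 1 (0.17). As deposited Obox5 was lower (−1.11, limma adjusted p = 0.00911), but not without WT 1-cell replicate 1 (limma adjusted p = 0.0609), without KO 2-cell replicate 1 (0.0788) or with only the 4 libraries (0.273). Obox6 was at the floor in WT 1-cell, at 6.55 and 2.75 FPKM in KO 2-cell and at 26.2 and 36.2 in WT 2-cell libraries (limma adjusted p = 0.00783, or 0.164 with only the 4 libraries). Obox3 was at the floor in WT 1-cell and in KO replicate 2, at 4.38 in KO replicate 1 and at 38.9 and 44.2 in WT 2-cell libraries. Without KO 2-cell replicate 2 the number of Obox genes called higher was 2 in place of 1. For both late genes each KO library was below each WT 2-cell library.

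Cell-cycle genes of meiosis and mitosis were more often lower than higher in KO 2-cell than in WT 1-cell embryos. Of 38 genes 17 were lower and 3 higher on centred values (28 and 0 as deposited), with a median of −0.48, and −0.52 to −0.95 under the other scalings. The shares of all genes were 13.3% lower and 13.6% higher on centred values, and 27.4% and 3.12% as deposited. From WT 1-cell to WT 2-cell embryos 13 of the 38 were lower and 8 higher (all genes: 14.7% and 21.1%). Cdca8, the borealin subunit of the chromosomal passenger complex, measured 52.2 and 41.4 FPKM in WT 1-cell, 2.72 and 2.87 in KO 2-cell libraries and 18.4 and 17.7 in WT 2-cell ones (KO 2-cell against WT 1-cell −2.77 ± 0.12, limma adjusted p = 1.6e-05). Aurkc, the germ-cell Aurora kinase of that complex, measured 151 and 103, 6.45 and 9.02, and 9.33 and 10.9 FPKM (−2.91 ± 0.17, limma adjusted p = 5.3e-05). Pttg1, the securin that holds back sister separation, went from 1427 and 1013 FPKM in WT 1-cell to 110 and 147 in KO 2-cell libraries and 99 and 105 in WT 2-cell ones (−2.23 ± 0.26, limma adjusted p = 0.000879, or 0.0555 with only the 4 libraries). Cdca8 and Aurkc were thus below both WT 2-cell libraries in both KO libraries. Wee2, an oocyte kinase that inhibits CDK1, was higher on centred values, at 89.4 and 94 FPKM in KO 2-cell against 91.8 and 71.2 in WT 1-cell and 51.9 and 39 in WT 2-cell (1.17 ± 0.23, limma adjusted p = 0.00792). As deposited the groups of Wee2 overlapped and it did not pass (0.18, limma adjusted p = 0.947). Ccne1, the cyclin E1 gene, was at the floor in WT 1-cell, at 3.51 and 1.7 FPKM in KO 2-cell and at 18.7 and 19.3 in WT 2-cell libraries (limma adjusted p = 0.0277). The call of Ccne1 ended without WT 1-cell replicate 1 (limma adjusted p = 0.111) or replicate 2 (0.107), with centring on genes above 5 FPKM (0.126) and with only the 4 libraries (0.288), and the count of higher members was 1 without either WT 1-cell library.

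Transient genes of the 2-cell stage, expressed in a burst when the mouse embryonic genome is activated, were mostly not gained. Of 30 measured genes 12 rose from WT 1-cell to WT 2-cell embryos (all genes: 21.1%). In KO 8 of those 12 were past the midpoint on the WT 1-cell side and 0 on the WT 2-cell side. Among all transcripts gained in WT 46.3% and 20.3% were. Against WT 1-cell as deposited 0 of the 30 were higher in KO and 5 lower (all genes: 3.12% and 27.4%). On centred values 2 were higher and 5 lower (all genes: 13.6% and 13.3%), with a median of 0.03. Without KO 2-cell replicate 2 the number called higher was 12, and with quantile normalization it was 11. Fbxo15, an F-box gene of early embryos, measured 6.53 and 4.07 FPKM in WT 1-cell, 7.31 and 4.11 in KO 2-cell libraries and 27.9 and 37.8 in WT 2-cell ones. Its KO libraries overlapped the WT 1-cell libraries as deposited and were below the WT 2-cell ones, and its centred call (0.92 ± 0.22, limma adjusted p = 0.02) ended without WT 1-cell replicate 2 (limma adjusted p = 0.118), with centring on genes above 5 FPKM (0.0982) and with only the 4 libraries (0.222). D5Ertd577e was also called higher (0.59 ± 0.09, limma adjusted p = 0.00236), at 1.93 and 2.02 FPKM against 2.14 and 1.61 in WT 1-cell and near the floor in WT 2-cell libraries. As deposited its KO values thus lay between the WT 1-cell ones, and its sign changed without WT 1-cell replicate 2 (−0.079). On centred values both WT 1-cell libraries were set at the common floor of 1.53, so its call and small SE depend on that floor.

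Sp110, a nuclear body gene on that list, was lower in KO than at either WT stage. It measured 59.7 and 52.9 FPKM in WT 1-cell, 8.01 and 5.42 in KO 2-cell libraries and 59.1 and 55.6 in WT 2-cell ones (−1.97 ± 0.17, limma adjusted p = 0.000244). Pramef12, a PRAME-family gene, measured 29.4 and 28.4, 5.39 and 4.05, and 2.89 and 2.56 FPKM in that order (−1.49 ± 0.18, limma adjusted p = 0.000979). Klf17, a zinc-finger gene with the highest level of the list, had 88 and 70.4 FPKM in WT 1-cell, 19.8 and 21.3 in KO 2-cell libraries and 18.5 and 20.9 in WT 2-cell ones (−0.91 ± 0.17, limma adjusted p = 0.0075). Its KO and WT 2-cell levels overlapped.

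Genes of the nucleolus and ribosome assembly, many of which WT embryos gain early, stayed near or fell below the WT 1-cell level. Of 69 measured genes 40 rose in WT 2-cell embryos and 8 fell (all genes: 21.1% and 14.7%). In KO 29 of those 40 were past the midpoint on the WT 1-cell side and 4 on the WT 2-cell side. Among all transcripts gained in WT 46.3% and 20.3% were. Against WT 1-cell 20 of the 69 were lower and 6 higher on centred values (all genes: 13.3% and 13.6%). As deposited 29 were lower and 1 higher (all genes: 27.4% and 3.12%), with 19 never above the floor. Nmd3, an export factor of the large ribosomal subunit, measured 35.6 and 21.2 FPKM in WT 1-cell, 4.86 and 3.11 in KO 2-cell libraries and 9.86 and 11.4 in WT 2-cell ones (−1.64 ± 0.20, limma adjusted p = 0.0011, or 0.0652 with only the 4 libraries). Bms1, a GTPase of small-subunit assembly, went from 14.7 and 12.6 FPKM to the floor in both KO and both WT 2-cell libraries (limma adjusted p = 5.3e-05). Nip7, a factor of large-subunit assembly, was higher at 35.7 and 24.9 against 19.3 and 13.9 FPKM in WT 1-cell and 15.8 and 25.5 in WT 2-cell (1.78 ± 0.30, limma adjusted p = 0.00428). Nop10, a small protein of box H/ACA particles, was higher as well (1.60 ± 0.22, limma adjusted p = 0.00183). Npm1, nucleophosmin, with the highest level of the list, did not pass on centred values (−0.24 ± 0.21, limma adjusted p = 0.659), where its sign changed without KO 2-cell replicate 1 (0.06) and it passed with quantile normalization (−0.40, limma adjusted p = 0.0354).

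Ribosomal protein transcripts were intermediate. Of 82 cytoplasmic ribosomal protein genes 75 rose from WT 1-cell to WT 2-cell embryos (median 2.26) and 42 were higher in KO 2-cell than in WT 1-cell embryos, with 2 lower (median 0.95). Among all genes 13.6% were higher and 13.3% lower in KO, and 21.1% rose in WT. As deposited 19 of the 82 were higher and 11 lower (all genes: 3.12% and 27.4%), with a median of 0.17. Under the other scalings 33 to 50 were higher. Without WT 1-cell replicate 1 the centred number was 25. Of the 75 risers 14 were past the midpoint on the WT 1-cell side in KO and 10 on the WT 2-cell side. Most passed on neither side. Among all transcripts gained in WT 46.3% were past it on the WT 1-cell side and 20.3% on the WT 2-cell side. Against WT 2-cell embryos 59 of the 82 were lower and 4 higher (all genes: 18% and 12.5%). Rpsa was at the floor in WT 1-cell, at 14.2 and 17.5 FPKM in KO 2-cell and at 10.5 and 11.5 in WT 2-cell libraries (limma adjusted p = 1.3e-05). Rps2 measured 36.2 and 41, 169 and 156, and 37.5 and 33.7 FPKM in that order (3.03 ± 0.18, limma adjusted p = 5.7e-05). These small-subunit genes were higher in both KO libraries than in all 4 WT libraries. Rpl4 was lower (−0.96 ± 0.07, limma adjusted p = 0.00015). Rps27l, with the highest level, was higher on centred values (1.35 ± 0.26, limma adjusted p = 0.00749), but not without WT 1-cell replicate 2 (limma adjusted p = 0.0539) or with only the 4 libraries (0.0982). Many ribosomal protein genes have processed pseudogenes, between which reads can be split.

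**Figure D5:**
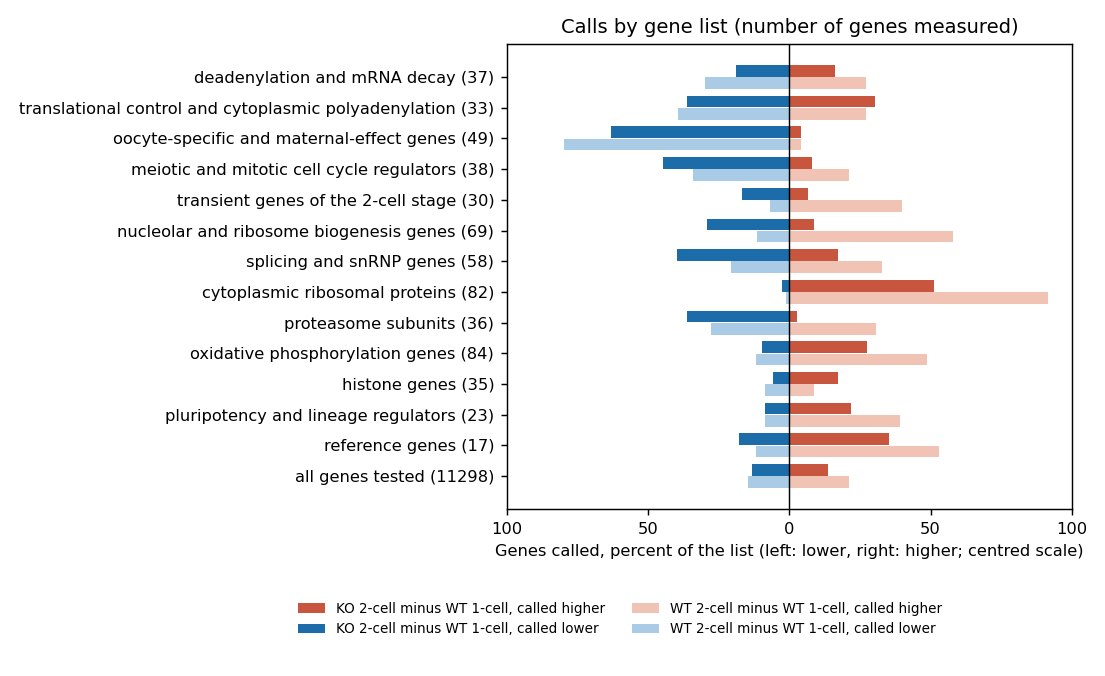
Percent of each gene list called lower (left of 0) and higher (right of 0) on centred values, with the number of genes measured in brackets. Dark bars are KO 2-cell minus WT 1-cell and pale bars WT 2-cell minus WT 1-cell, and the last row gives all 11298 genes. For oocyte-specific and maternal-effect genes the dark bar on the left (31 of 49) nears the pale one (39 of 49), whereas for nucleolar genes the pale bar on the right (40 of 69) has no dark counterpart of its length (6 of 69).

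Other housekeeping groups split within themselves. Of 58 splicing and snRNP genes 23 were lower and 10 higher on centred values (all genes: 13.3% and 13.6%). As deposited 36 were lower and 2 higher (all genes: 27.4% and 3.12%). Besides Snrpd3, Snrpd1 fell from 172 and 133 FPKM in WT 1-cell to 13.7 and 13.1 in KO 2-cell, with 17.9 and 29 in WT 2-cell libraries (−2.43 ± 0.23, limma adjusted p = 0.000385). Srsf1, an SR splicing factor gene, was higher, at 4.54 and 3.89 FPKM against 2.04 and 1.83 in WT 1-cell and 6.09 and 6.61 in WT 2-cell (1.46 ± 0.07, limma adjusted p = 2.9e-05). The splicing gene Sf3b5 was higher on centred values only (1.19 ± 0.23, limma adjusted p = 0.00725, or 0.117 with only the 4 libraries), and so was Snrpg, with the highest level of the list (1.12 ± 0.24, limma adjusted p = 0.0126). The call of Snrpg ended without WT 1-cell replicate 1 (limma adjusted p = 0.0532), WT 1-cell replicate 2 (0.0727) or KO 2-cell replicate 2 (0.0517) and with only the 4 libraries (0.123).

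Of 36 proteasome subunit genes 13 were lower and 1 higher (all genes: 13.3% and 13.6%). As deposited 27 were lower and 0 higher (all genes: 27.4% and 3.12%). WT 2-cell embryos had 11 of the 36 higher and 10 lower than WT 1-cell (all genes: 21.1% and 14.7%). Of those 11, 8 were past the midpoint on the WT 1-cell side in KO and 0 on the WT 2-cell side. Among all transcripts gained in WT 46.3% and 20.3% were. Psma2 measured 222 and 130 FPKM in WT 1-cell, 17.6 and 19.4 in KO 2-cell libraries and 21.2 and 24.7 in WT 2-cell ones (−2.15 ± 0.21, limma adjusted p = 0.000413). The base subunit gene Psmc5 was at the floor in both KO libraries, against 14.1 and 9.85 FPKM in WT 1-cell and 2.07 and 3.41 in WT 2-cell (limma adjusted p = 0.000112). Both genes were thus below both WT stages. Psmb1 was the 1 subunit gene called higher (1.08 ± 0.23, limma adjusted p = 0.0115), which did not hold without WT 1-cell replicate 2 (limma adjusted p = 0.0662, 0 genes higher) or with only the 4 libraries (0.13), and 3 genes were higher without KO 2-cell replicate 1.

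Of 84 oxidative phosphorylation genes 23 were higher and 8 lower on centred values, and the direction turned as deposited, with 8 higher and 25 lower. The shares of all genes were 13.6% higher and 13.3% lower on centred values, and 3.12% and 27.4% as deposited. In WT 2-cell embryos 41 of the 84 were higher and 10 lower than in WT 1-cell (all genes: 21.1% and 14.7%). Cox7b, a cytochrome c oxidase subunit gene, measured 5.39 and 3.52 FPKM in WT 1-cell, 46.4 and 31 in KO 2-cell libraries and 9.58 and 22.2 in WT 2-cell ones (3.75 ± 0.35, limma adjusted p = 0.000345). The complex I gene Ndufv2 measured 2.48 and 1.85, 13.7 and 11.5, and 2.92 and 4.65 FPKM in that order (2.87 ± 0.14, limma adjusted p = 2.5e-05). Both genes were above all 4 WT libraries in both KO libraries. Ndufa10, another complex I gene, fell to 3.56 and 3.95 FPKM from 47.8 and 37.1 (−2.28 ± 0.14, limma adjusted p = 7.5e-05), with 2.28 and 3.3 in WT 2-cell libraries. The complex III gene Uqcrc2 was lower too (−2.22 ± 0.26, limma adjusted p = 0.000831, or 0.0631 with only the 4 libraries), and Cox8a, with the highest level, was higher on centred values (1.51 ± 0.16, limma adjusted p = 0.000573).

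Of 35 histone genes, 17 of them never above the floor, 6 were higher and 2 lower on centred values (all genes: 13.6% and 13.3%). As deposited 2 were higher and 3 lower (all genes: 3.12% and 27.4%). Hist1h2bc, an H2B gene, measured 5.03 and 1.97 FPKM in WT 1-cell but 24.4 and 33.6 in KO 2-cell embryos, and was at the floor in both WT 2-cell libraries (3.67 ± 0.26, limma adjusted p = 0.000123). H2afz, the variant H2A.Z gene that WT embryos gain, measured 14.1 and 9.99 FPKM in WT 1-cell, 46 and 20.1 in KO 2-cell libraries and 87.9 and 99.4 in WT 2-cell ones (2.23 ± 0.36, limma adjusted p = 0.00361, or 0.0931 with only the 4 libraries). Hist1h2ba, a germ-line H2B gene, went to the floor in both KO and WT 2-cell libraries from 6.06 and 4.49 FPKM (limma adjusted p = 0.00019). Hist1h2aa was lower (−0.63 ± 0.18, limma adjusted p = 0.0382) but not without WT 1-cell replicate 1 (limma adjusted p = 0.0812), WT 1-cell replicate 2 (0.187) or KO 2-cell replicate 1 (0.178), with only the 4 libraries (0.264), with quantile normalization (0.126) or with the replicate number as a block (0.0511). The highest level was that of H3f3b, an H3.3 gene, which did not pass on centred values (−0.43 ± 0.14, limma adjusted p = 0.0738) but passed as deposited (−1.43, limma adjusted p = 0.000646), with quantile normalization (−0.64, limma adjusted p = 0.00337), with median-ratio size factors (−0.50, 0.0359) and with centring on genes above 5 FPKM (−0.72, 0.00515). Without WT 1-cell replicate 2 the number of higher histone genes was 3, and the number lower was 1 without WT 1-cell replicate 1, WT 1-cell replicate 2 or KO 2-cell replicate 1.

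Of 23 pluripotency and lineage regulators 5 were higher and 2 lower on centred values (all genes: 13.6% and 13.3%). As deposited 3 were higher and 5 lower (all genes: 3.12% and 27.4%). Dppa5a, a pluripotency-associated RNA-binding gene, measured 17.5 and 15.5 FPKM in WT 1-cell, 96.7 and 102 in KO 2-cell libraries and 25.9 and 38.6 in WT 2-cell ones (3.49 ± 0.25, limma adjusted p = 0.000121). Nanog, a pluripotency transcription factor gene, measured 1.11 and 1.27, 7.45 and 5.02, and 2.36 and 3.8 FPKM in that order (1.94 ± 0.17, limma adjusted p = 0.000273). For both genes the KO libraries were above all 4 WT libraries. Sall4, a zinc-finger regulator gene, went the other way, from 24.3 and 22.6 FPKM to 1.55 and 1.99, against 3.21 and 5.99 in WT 2-cell libraries (−2.32 ± 0.29, limma adjusted p = 0.00114). Dppa2, a developmental pluripotency-associated gene, was lower (−0.52 ± 0.13, limma adjusted p = 0.024) but not without WT 1-cell replicate 1 (limma adjusted p = 0.138), KO 2-cell replicate 1 (0.106, 1 gene lower in all) or with only the 4 libraries (0.237).

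Not all common reference genes were level across this comparison. Of 17 genes 6 were higher and 3 lower on centred values (all genes: 13.6% and 13.3%). As deposited 1 was higher and 4 were lower (all genes: 3.12% and 27.4%). B2m measured 7.93 and 3.88 FPKM in WT 1-cell but 21.1 and 20.7 in KO 2-cell embryos (2.63 ± 0.23, limma adjusted p = 0.000263), and Ppia 18.1 and 12.9 against 18.5 and 22 (1.33 ± 0.21, limma adjusted p = 0.0036). Ywhag went from 24.6 and 27.7 FPKM to 4.25 and 2.2 (−1.86 ± 0.27, limma adjusted p = 0.00225, or 0.0784 with only the 4 libraries). Ywhaz, with the highest level, was lower (−0.62 ± 0.11, limma adjusted p = 0.00553, or 0.0545 with only the 4 libraries). Tbp was lower (−0.82 ± 0.21, limma adjusted p = 0.0288), but not without WT 1-cell replicate 1 (limma adjusted p = 0.101), without WT 1-cell replicate 2 (0.118) or with only the 4 libraries (0.251).

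Markers of other cells were at or near the floor. Of 7 genes that mark cumulus and granulosa cells 5 had the floor value throughout the 4 libraries. The other 2 were lower in KO 2-cell than in WT 1-cell embryos on both scales, Cyp19a1 (aromatase, 6.48 and 5.09 FPKM against the floor) and Esr2 (7.56 and 4.62 against 1.22 and 1.65). Among all genes 13.3% were lower on centred values and 27.4% as deposited. The list summed to 14.7 to 19 FPKM in the WT 1-cell libraries, against 7.22 to 7.65 in the KO 2-cell ones, and with quantile normalization 2 members were higher and 2 lower. Of 3 sperm markers 2 never exceeded the floor, and Prm2, a protamine gene, had 2.56 and 1.71 FPKM in WT 1-cell libraries but only the floor in KO 2-cell ones (limma adjusted p = 1 centred). The 7 blood and immune markers summed to 8.74 to 9.25 FPKM in the WT 1-cell libraries, against 8.67 to 9.89 in the KO 2-cell ones. On centred values 2 were higher and 0 lower (all genes: 13.6% and 13.3%), and as deposited 2 and 1 (3.12% and 27.4%). Pecam1 was called lower as deposited. On centred values it passed as lower only with some alternatives, such as quantile normalization (−1.74, limma adjusted p = 8.25e-05) and only the 4 libraries (−0.29, 0.0175). The myeloid gene Lyz2 was higher at 2.33 and 2.7 FPKM against the floor, but not with only the 4 libraries (limma adjusted p = 0.0637). Tyrobp was higher at 1.34 and 1.87, which did not hold without WT 1-cell replicate 1 (limma adjusted p = 0.138), WT 1-cell replicate 2 (0.126), with centring on genes above 5 FPKM (0.32) or with only the 4 libraries (0.324). Without KO 2-cell replicate 1 the number of higher blood markers was 4. Their part in the other results was not tested.

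Of 6 structural noncoding RNAs 3 were higher and 0 lower on centred values (all genes: 13.6% and 13.3%). More were higher without KO 2-cell replicate 2. Besides Rn45s the 3 were Gas5, chosen after its values were seen, and Vaultrc5, a vault RNA. Vaultrc5 measured 26.4 and 19.2 FPKM in WT 1-cell, 40.5 and 48.2 in KO 2-cell libraries and 4.73 and 5.3 in WT 2-cell ones (1.91 ± 0.33, limma adjusted p = 0.00514). Vaultrc5, like Rn45s, is made without a poly(A) tail by the usual account. Both KO libraries were above all 4 WT libraries for Vaultrc5 and Rn45s. As deposited the call of Vaultrc5 (0.94, limma adjusted p = 0.0431) was lost without each of the 4 libraries in turn (limma adjusted p of 0.063 to 0.227), with only the 4 libraries (0.0843) and with a pseudocount of 0.1 (0.0581).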

How the data were processed

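RNA of WT and Pabpn1l-KO oocytes and embryos was profiled in 12 Smart-seq2 libraries, 2 in each of 6 groups. The authors deposited 1 table of FPKM. Its making involved Cufflinks 2.2.1, TopHat2 2.1.1 and the mm9 build, per the submitters' processing notes. ERCC spike-in RNA was in the lysis buffer, per the labels' protocols, and the table held 0 ERCC entries. The basis of the libraries' scales is not given in the sources used here. FPKM carry no counts, so the depth is unknown and counting intervals cannot be had. The table's last entry, with 1 value, was left out.

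From the deposited FPKM, log2(FPKM + 1) of 11298 genes entered a limma 3.58.1 model (R 4.3.3) with an intensity trend, fitted to the 12 libraries together. Tests were two-sided with Benjamini-Hochberg adjustment over every gene of a contrast, and an adjusted p below 0.05 made a call. The ± sign gives the standard error of a log2 fold change. Contrasts were KO 2-cell minus WT 1-cell and KO 2-cell minus the mean of WT 1-cell and WT 2-cell, besides the WT change and KO minus WT at the 2-cell stage. These contrasts share libraries, so their results are not independent. Centred values were FPKM scaled per library to a common median over genes above 1 FPKM in the 4 libraries compared, with a common floor. Unless the text says deposited, fold changes and calls are on centred values.

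Named genes were Pabpn1l, Btg4 and Obox2, the 8 largest rises and 8 largest falls called on both scales with no overlap and a mean of at least 20 FPKM in the higher group, the 6 largest WT rises and falls with such a mean, and in each of 19 lists up to 2 genes called higher, up to 2 called lower and the most abundant. Members, lists and tests were chosen with earlier results of these data known. Transcript lengths were those of the longest GENCODE M21 transcript (98.7% of genes matched), and promoters were those of RefSeq on GRCm38.p6, read with Python 3.11.15. Scripts were tested on simulated data. Alternatives covered the pseudocount, a filter on low values, the libraries in the fit, the scaling, the replicate number as a block and leaving out each library.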

Additional observations from a re-analysis of the deposited data

How the results depend on the processing

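The number of genes called between KO 2-cell and WT 1-cell embryos moved with the processing, and the cause was not tested unless given here. Dropping genes with a mean under 5 FPKM tested fewer genes and gave 218 higher and 1628 lower as deposited and 904 and 964 centred. Against the midpoint that filter gave 777 lost transcripts on the WT 2-cell side and 149 gained ones on the WT 1-cell side as deposited, and 383 and 216 centred. Fitting only the 4 libraries, which leaves fewer samples for the spread, gave 144 higher as deposited and 695 higher and 784 lower centred. Centring on genes above 5 FPKM gave 953 higher. Quantile normalization gave 3705 higher and 2739 lower, with 710 lost transcripts on the WT 1-cell side and 1333 on the WT 2-cell side. Without the common floor 7127 were higher, since differing floors then count as differences. Among transcripts changed at least 4-fold in WT, lost ones on the WT 1-cell and WT 2-cell side numbered 30 and 403 as deposited and 17 and 104 centred, and gained ones 86 and 7, and 142 and 21.

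Over genes above the floor in all 8 embryo libraries the mean r of KO replicate 1 was 0.73 with WT 1-cell and 0.812 with WT 2-cell as deposited (0.734 and 0.81 centred), and of replicate 2 0.779 and 0.771 (0.782 and 0.768). With a 2-fold limit KO replicate 1 had covered 80.9% of the WT change for cleared and 32.1% for gained transcripts, and replicate 2 9.47% for gained ones. With at least 20 FPKM these were 81%, 47.4% and 19.1%, and kept transcripts lay 0.21 and 0.36 above WT 1-cell.

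Leaving out each library in turn, with a lone sample assumed to vary like the other groups, gave 183 to 419 higher and 2146 to 2931 lower as deposited, and 1134 to 1802 and 1165 to 1337 centred. Against the midpoint the deposited ranges were 100 to 171 and 657 to 1354 lost transcripts on the WT 1-cell and WT 2-cell side, and 308 to 648 and 19 to 55 gained ones. The centred ranges were 181 to 293, 467 to 628, 892 to 1464 and 321 to 568. Lost transcripts on the WT 2-cell side outnumbered those on the WT 1-cell side, and gained ones the reverse, in each of these fits. In both kinds the larger group is the one below the midpoint.

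Of the 94 named genes, direction and call were kept in 858 combinations of gene and alternative as deposited and 1210 centred, gained a call in 16 and 12, lost it in 44 and 75 and changed sign in 7 and 4. The sign changes were all in values that had not passed. As deposited Omt2b ran from −0.138 to 0.419, Wee2 from −0.001 to 0.361, Fbxo15 from −0.274 to 0.427 (and −0.209 without WT 1-cell replicate 2), D5Ertd577e from −0.079 to 0.19, Snrpg from −0.077 to 0.307 and Sf3b5 from −0.024 to 0.584 as single libraries were left out. Centred, Obox5 ran from −0.315 to 0.168 (0.048 without WT 1-cell replicate 1), Npm1 from −0.467 to 0.064, and Oosp1 was −0.113 with quantile normalization.

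Whether the replicate numbers pair the samples is not known from the sample titles. Deviations from the group means correlated at −0.083 between KO 2-cell and WT 1-cell and −0.322 between KO 2-cell and WT 2-cell libraries. Between WT 1-cell and WT 2-cell libraries the value was 0.027. These values are taken across genes, which are not independent replicates, so they cannot decide on a pairing. With the replicate number as a block 328 genes were higher and 2939 lower as deposited and 1450 and 1389 centred. A crossed pairing, chosen after seeing the data, gave 351 and 2983, and 1486 and 1429. FPKM give no depth, so low values cannot be weighed by counts.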
